A study of Mus musculus with 2 samples.

Results

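The genes examined here were the matrix metalloproteinases (Mmp), the ADAMTS proteinases (Adamts), the ADAMTS-like proteins (Adamtsl) and the tissue inhibitors of metalloproteinases (Timp). All rows of the deposited gene table whose symbol starts with Mmp, Adamts, Adamtsl or Timp followed by a digit were taken. The rule found 51 of 27998 rows: 23 Mmp, 19 Adamts, 5 Adamtsl and 4 Timp genes.

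Most Mmp proteins are secreted as zymogens that are opened by other proteases and then cut collagens, gelatin, proteoglycans or growth factor carriers, while a subset is held at the cell surface. The Adamts enzymes trim procollagens or cut large proteoglycans, the Adamtsl proteins share their ancillary domains but lack the protease, and the Timp proteins bind and block both kinds of enzyme. In healing skin these genes are known for the remodelling of the provisional matrix and for the movement of fibroblasts, vessels and keratinocytes through it.

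Single-cell RNA sequencing had been run on Tomato+ cells sorted from the dermis of small skin wounds of mice aged 4 to 5 weeks. The control library came from SM22rtTA; tetO-Cre; R26-Tomato mice and the SM22-SmoM2 library from SM22rtTA; tetO-Cre; R26-SmoM2/Tomato mice, in which Cre also switches on SmoM2, an activated form of the Hedgehog (Hh) transducer Smoothened. Mice of both genotypes received doxycycline chow (20 g/kg) from day 1 after wounding until wounds were collected 3 days after complete re-epithelialization, so rtTA driven by the SM22 promoter, Cre and Tomato were shared by both groups. Each library pooled wounds of several mice, dermis was freed with EDTA and digested with collagenase, and there was 1 library per condition: no comparison below has a replicate check or a p-value.

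After cells above 10% mitochondrial unique molecular identifiers (UMIs) were left out, 2856 control cells with 30103855 UMIs and 1792 SM22-SmoM2 cells with 17814222 UMIs remained. Cells were clustered without the members and named from marker genes. Clusters resembling fibroblasts, endothelium, Schwann cells, mural muscle, immune cells and, for a few cells, keratinocytes were found in both libraries of these sorted cells. Tagln, the gene of the SM22 promoter, was at 144 and 201 counts per 1000000 UMIs (CPM) in control and SM22-SmoM2 fibroblasts and at 1400 and 733 CPM in muscle cells. The fibroblast comparison used 1039 control and 1098 SM22-SmoM2 cells, with 13669070 and 12469657 UMIs, after 69 and 3 cells of mixed sub-clusters were set aside. Among the 10 leading genes of these sub-clusters, markers of another lineage outnumbered those of fibroblasts. The largest, sub-cluster 11 (52 and 1 cells), was led by C4b, Sfrp4 and Wisp2. In fibroblasts the Hh target Ptch1 was at 12.4 CPM in the control and at 147 CPM in the SM22-SmoM2 library, and Gli1 was at 5.63 and 33.2 CPM. Of the fibroblasts whose sex could be read from X- and Y-linked transcripts, 76.2% were male in the control and 94.4% in the SM22-SmoM2 library. Levels below are sums of UMIs over the cells of a class as CPM; a UMI tags the 3′ end of a transcript, so CPM is not divided by gene length. Intervals in brackets are exact 95% intervals for counting error only and hold no spread between mice.

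Of the 51 members, 43 had at least 20 UMIs in all kept cells. The other 8 were too low to describe. Mmp1a, Mmp1b, Mmp7, Mmp20 and Mmp21 had 0 UMIs, which allows up to 3 in these libraries, Adamts13 had 1, Mmp24 had 4 and Timp4 had 15. A ratio between libraries in fibroblasts was formed for the 40 members with at least 20 fibroblast UMIs.

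All 51 members were placed on 18 chromosomes of GRCm38 by the GENCODE M21 annotation. A run of 10 Mmp genes lies on chromosome 9 from 7272514 to 7699585, and it held 4 of the 5 members without a UMI. Of its 5 genes with a fibroblast ratio, Mmp3, Mmp10, Mmp12 and Mmp27 were at least 2-fold lower in the SM22-SmoM2 library, a limit that 6.03% of all genes passed, and Mmp13, at the end of the run, was not. The Mmp10 and Mmp12 values rest on few cells, since 3 cells and 1 cell held 50% of their UMIs in control fibroblasts. The start regions of these 5 genes are printed because neighbours in 1 locus moved differently; each runs from 100 bases before to 20 bases after the annotated RefSeq start (GRCm38.p6, plus strand, 5′ to 3′). Capitals mark matches to TGANTCA, the AP-1 motif, and TATAAA, the TATA motif, both searched on both strands.

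Mmp13, chr9:7272414-7272533: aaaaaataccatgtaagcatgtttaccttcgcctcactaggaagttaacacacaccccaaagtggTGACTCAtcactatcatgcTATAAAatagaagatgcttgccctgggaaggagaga
Mmp12, first start, chr9:7344297-7344416: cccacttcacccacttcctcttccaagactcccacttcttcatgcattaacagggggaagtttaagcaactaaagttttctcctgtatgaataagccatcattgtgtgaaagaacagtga
Mmp12, second start, chr9:7347274-7347393: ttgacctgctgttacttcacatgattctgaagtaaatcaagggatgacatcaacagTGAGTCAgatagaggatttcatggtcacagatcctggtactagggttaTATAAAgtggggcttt
Mmp3, chr9:7445722-7445841: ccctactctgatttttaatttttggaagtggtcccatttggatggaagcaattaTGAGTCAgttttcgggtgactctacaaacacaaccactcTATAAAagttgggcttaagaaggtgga
Mmp10, chr9:7502242-7502361: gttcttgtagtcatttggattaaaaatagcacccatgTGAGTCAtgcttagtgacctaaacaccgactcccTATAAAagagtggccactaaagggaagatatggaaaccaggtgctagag
Mmp27, chr9:7571296-7571415: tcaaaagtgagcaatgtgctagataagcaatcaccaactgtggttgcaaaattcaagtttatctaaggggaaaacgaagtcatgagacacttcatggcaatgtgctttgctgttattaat

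RefSeq windows of 250 bases before to 50 bases after the start were at hand for 36 members (39 windows). AP-1 letters were in 8 of the 39 windows (20.5%) and in 7.81% of all 32851 windows, and TATAAA was in 12 of them (30.8%) against 13.6% of all. The 8 AP-1 matches were all in the chromosome 9 run, in 8 of its 10 genes, between 95 and 35 bases before the start, and 0 of the 27 other member windows held them. Mmp13, with the highest fibroblast ratio of the run, and Mmp10, with the lowest, both carried the letters, and Mmp27 and the first start of Mmp12 carried neither motif. The GLI motif GACCACCCA was in 0 of the 39 member windows and in 0.253% of all. A match is a description of the sequence and not a bound site.

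More members peaked in fibroblasts than in any other lineage. Lineages were ranked by the mean over libraries with at least 50 cells of the lineage, for immune cells the control alone. By this mean 21 of the 43 measured members were highest in fibroblasts, 12 in Schwann, 4 in endothelial, 4 in immune and 2 in muscle cells. The same ranking was not made over all genes, so these counts are not shown to be particular to the members. Mmp19 counts as immune, though its highest level in 1 library with at least 50 cells of a lineage was 68.2 CPM in control fibroblasts. In the 33 immune cells of the SM22-SmoM2 library it was at 153 CPM. Some peaks rest on few UMIs, with 3 for Mmp25 in control immune cells and 1 for Adamtsl3 in SM22-SmoM2 muscle cells. The summed Mmp level was 2813 CPM in control fibroblasts and 670.8 CPM in control muscle cells, the next highest lineage with 50 or more cells. The stromelysins Mmp3 and Mmp10 were concentrated in fibroblasts, with shares taken over cells outside the set-aside sub-clusters. Fibroblasts held 96.2% of these Mmp3 UMIs in the control and 98.9% in the SM22-SmoM2 library, and 98.8% and 100% of the Mmp10 UMIs. Of the 6017 Mmp3 UMIs in all kept cells the compared fibroblasts held 4927. No other lineage held more than 49 in a library, so most of the others were in the set-aside sub-clusters (69 control and 3 SM22-SmoM2 cells). These shares follow cell numbers too: the 49 Mmp3 UMIs in only 16 control keratinocytes were 63.0% of the control fibroblast level in CPM. For the 20 measured members that reached neither 100 CPM in a lineage nor a 2-fold ratio in fibroblasts, single-library peaks are given. These lay between 1.83 CPM (Adamts6, endothelial) and 76.0 CPM (Mmp15, Schwann). Among them Adamts8 (6.16 CPM) and Mmp28 (5.31 CPM) were highest in Schwann cells and Adamts12 (13.9 CPM) in muscle cells.

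**Figure D1:**
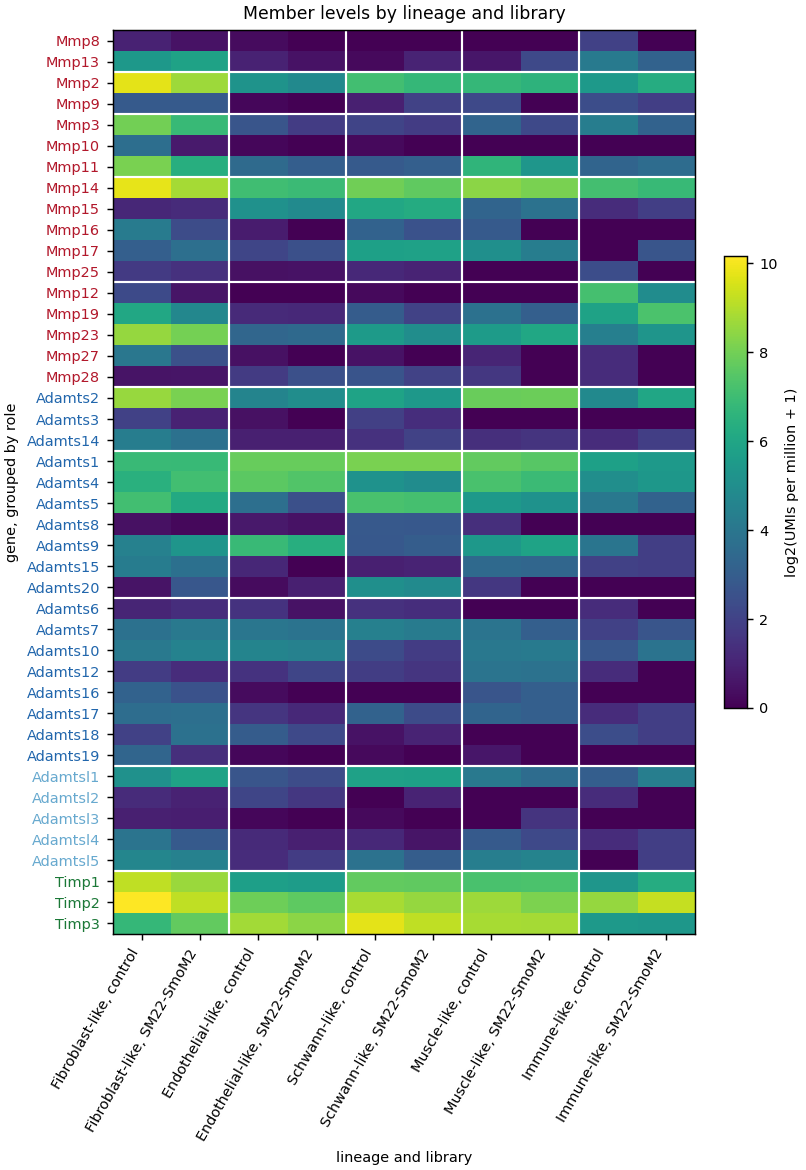
Levels of the 43 measured members (rows, grouped by role) in 5 lineages of each library (columns), as log2(CPM + 1). Mmp2, Mmp14, Timp1 and Timp2 were brightest in fibroblasts, Timp3 in Schwann cells, and Mmp12 in immune cells.

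The other lineages also carried members. In Schwann cells the inhibitor Timp3 reached 848 CPM in the control and 575 CPM in the SM22-SmoM2 library, the membrane-type Mmp15 was at 67.3 and 76.0 CPM against 1.17 and 1.36 CPM in fibroblasts, and the versican-cutting Adamts20 was at 32.1 and 28.3 CPM. Endothelial cells carried the proteoglycanases Adamts4 (196 and 169 CPM), Adamts9 (116 and 81.1 CPM) and Adamts1 (224 and 223 CPM). Adamts1 was no higher there than in Schwann cells (280 and 278 CPM) and was at 209 and 183 CPM in muscle. Muscle cells shared the procollagen N-proteinase Adamts2 with fibroblasts, at 225 and 238 CPM. Immune cells had the highest level of the macrophage elastase Mmp12, with 101 UMIs (144 CPM) over the 82 immune cells of the control but 11 UMIs (30.1 CPM) over the 33 of the other library. Mmp19 was at 57.1 and 153 CPM in immune cells.

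RNA freed from fibroblasts can enter droplets of other cells. The median of 6 collagen and proteoglycan genes of fibroblasts (Col1a1, Col1a2, Col3a1, Dcn, Lum, Dpt) in endothelial cells was 1.49% of the fibroblast level in the control and 2.42% in the SM22-SmoM2 library, and in immune cells it was 6.64% and 20.7%. The immune levels of Mmp2 (5.13% and 18.8% of the fibroblast level), Mmp11 (3.09% and 13.3%) and Mmp23 (5.41% and 14.7%) were below those shares. Whether these levels are background was not tested. The endothelial level of Mmp3 (2.09% and 2.21%) was close to them. Timp2, at 32.8% and 105% in immune cells, and Mmp14, at 15.1% and 27.0% in endothelial cells, were above them.

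Between libraries, fibroblasts of SM22-SmoM2 wounds had less Mmp RNA per UMI. The summed Mmp level was 2813 [2785 to 2842] CPM in the control and 1421 [1400 to 1442] CPM under SmoM2 (log2 ratio −0.99), while the summed Timp level was 1834 and 1193 CPM (−0.62), the Adamts level 845 and 737 CPM (−0.20) and the Adamtsl level 75.7 and 86.7 CPM (0.20). A lower CPM of a gene cannot be told apart here from more RNA of other genes. There were 1.53 Mmp UMIs for each Timp UMI in control fibroblasts and 1.19 in SM22-SmoM2 fibroblasts. In endothelial and Schwann cells the Mmp log2 ratios were −0.21 and −0.23 and the Timp ratios −0.34 and −0.39.

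**Figure D2:**
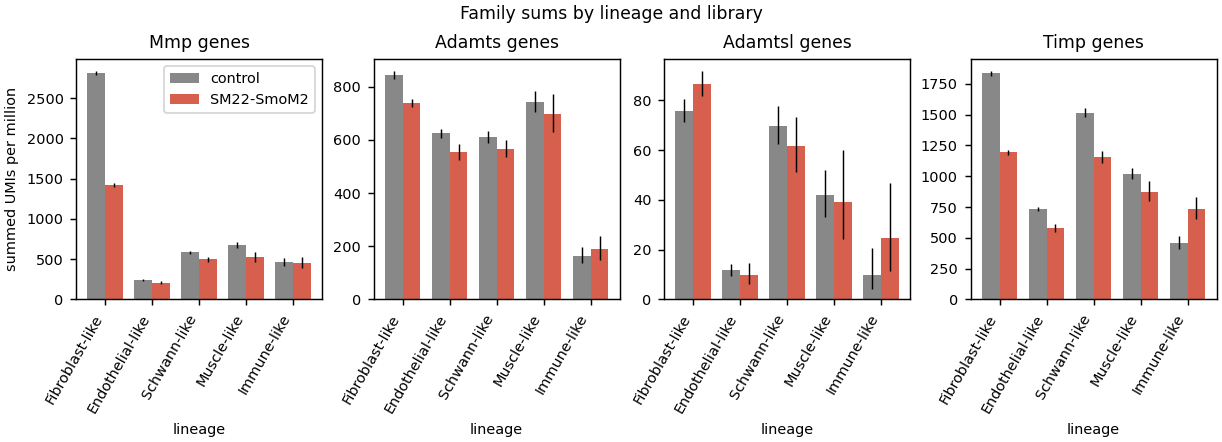
Summed CPM of the Mmp, Adamts, Adamtsl and Timp genes in 5 lineages; grey bars are the control and red bars the SM22-SmoM2 library, with exact 95% Poisson intervals for counting error. The Mmp bar of fibroblasts was 2813 in the control and 1421 in the SM22-SmoM2 library, while the other lineages differed less.

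Among the 40 members, 2 were at least 2-fold higher in SM22-SmoM2 fibroblasts (5%) and 11 were at least 2-fold lower (27.5%). Over all 12992 genes with as many UMIs the shares were 6.55% higher and 6.03% lower. The median log2 ratio was −0.52 over the members and −0.06 over all genes. Intervals lay wholly above 0 for 10 members, wholly below 0 for 20 and spanned 0 for 10. These interval counts were not taken over all genes, so they have no background share. By role, 3 of 3 stromelysins, 1 of 2 gelatinases, 1 of 5 membrane-type Mmp, 3 of 4 other Mmp, 1 of 3 procollagen N-proteinases, 1 of 8 other Adamts and 1 of 5 Adamtsl genes were at least 2-fold lower, and 0 of 6 proteoglycanases and 0 of 3 inhibitors were.

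**Figure D3:**
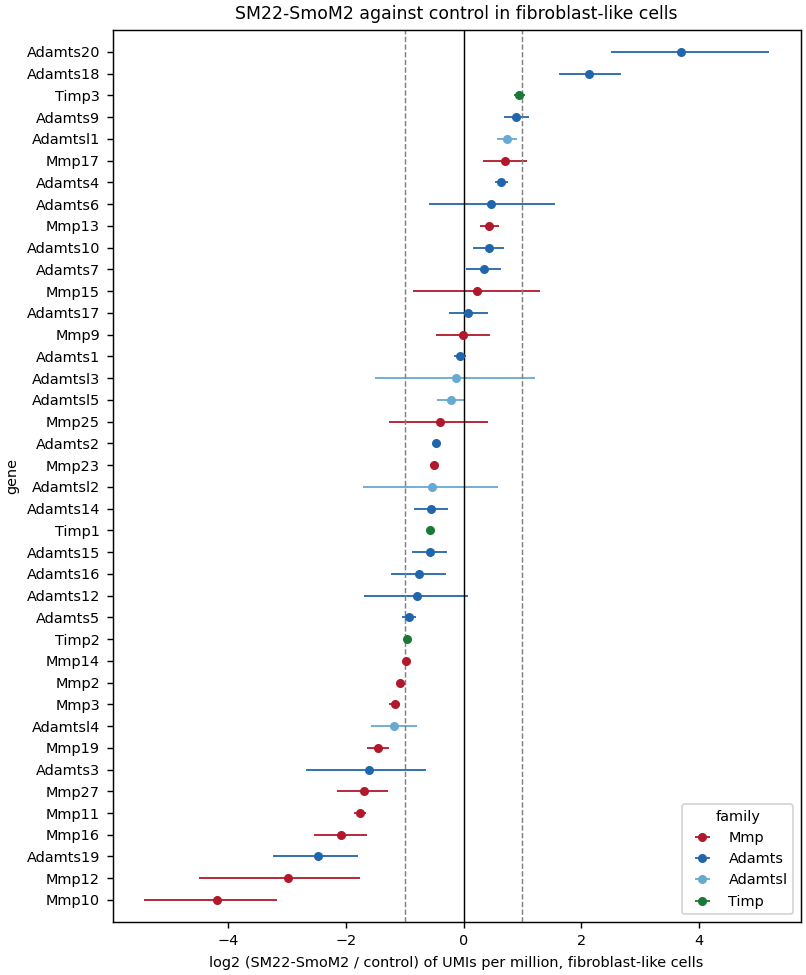
Log2 ratio of SM22-SmoM2 over control in fibroblasts for the 40 members with at least 20 UMIs; points are ratios of CPM, bars exact 95% intervals for counting error, dashed lines the 2-fold limits. Mmp10 lay lowest at −4.19 and Adamts20 highest at 3.70.

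The collagenase Mmp13, which starts the cut of fibrillar collagen, was at 42.1 CPM in the control and 56.9 CPM in the SM22-SmoM2 library (0.43 [0.27 to 0.59]). Few cells made it: 83 of 1039 control and 85 of 1098 SM22-SmoM2 fibroblasts held a UMI, and 11 and 8 cells were enough for 50% of the UMIs. Of its UMIs in compared control fibroblasts, 87.5% were in sub-cluster 2, whose leading genes were Igfbp2, Ctla2a and Wisp2. In those of the SM22-SmoM2 library 57.4% were in sub-cluster 4, led by Areg, Wif1 and Hmox1. Its direction was not stable, with a ratio of 1.09 in male cells, −2.07 in female cells and −0.64 with Leiden clustering. Mmp8, the other collagenase with UMIs, had 22 in all.

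The gelatinase Mmp2, which degrades denatured collagen, was at 863 [847 to 879] CPM in the control and 407 [396 to 419] CPM in the SM22-SmoM2 library (−1.08). With each cell thinned to 2500 UMIs, 79.5% of control and 49.5% of SM22-SmoM2 fibroblasts held an Mmp2 UMI (97.8% and 78.1% unthinned). The membrane-anchored Mmp14, which activates the Mmp2 zymogen and cuts collagen at the cell surface, was at 869 and 442 CPM (−0.97 [−1.02 to −0.93]). Together they made up most Mmp UMIs of control fibroblasts. The other gelatinase, Mmp9, was at 6.29 and 6.26 CPM.

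All 3 stromelysins were lower in SM22-SmoM2 fibroblasts. Mmp3, which cuts proteoglycans and activates other Mmp zymogens, was at 256 [248 to 265] CPM in the control and 114 [108 to 120] CPM in the SM22-SmoM2 library (−1.17). These Mmp3 levels leave out the set-aside sub-clusters (69 control and 3 SM22-SmoM2 cells), which held most of the Mmp3 UMIs outside the compared fibroblasts. Mmp11, which acts on protease inhibitors and collagen VI more than on fibrillar collagen, was at 278 and 82.1 CPM (−1.76 [−1.86 to −1.66]). Mmp10 was at 11.7 and 0.642 CPM (−4.19 [−5.43 to −3.18]), with 160 UMIs in 35 control cells and 8 UMIs in 8 SM22-SmoM2 cells. A single control cell held 43 of the Mmp10 UMIs.

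Among the other Mmp genes, Mmp19 was at 68.2 and 25.0 CPM (−1.45), Mmp27 at 15.4 and 4.73 CPM (−1.70) and the membrane-type Mmp16 at 17.7 and 4.17 CPM (−2.09). Mmp23, an Mmp that lacks the usual cysteine switch, was at 370 and 261 CPM (−0.50). Mmp12 had 52 and 6 fibroblast UMIs (−2.98), and 29 of the 52 were in 1 control cell, so its fibroblast ratio describes very few cells. The membrane-type Mmp17 was at 7.46 and 12.1 CPM (0.70), with a ratio of −2.29 in female cells alone.

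The Adamts genes were mixed. Of the procollagen N-proteinases, which remove the amino-terminal propeptide of fibrillar collagens, Adamts2 was at 381 and 276 CPM (−0.47), Adamts14 at 18.9 and 12.9 CPM (−0.55) and Adamts3 at 2.93 and 0.962 CPM (−1.60). Of the proteoglycanases, which cut aggrecan and versican, Adamts4 was at 86.0 and 134 CPM (0.64 [0.53 to 0.75]), Adamts9 at 20.9 and 38.9 CPM (0.89 [0.68 to 1.11]), Adamts5 at 134 and 70.3 CPM (−0.93 [−1.04 to −0.81]) and Adamts1 at 118 and 113 CPM (−0.06 [−0.16 to 0.04]). Thus Adamts4 and Adamts5, both known as aggrecanases, differed between libraries in opposite directions, though in female cells alone both reversed (−0.30 and 0.35).

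Adamts18 and Adamts20 were the members at least 2-fold higher. Adamts18 had 40 UMIs in 24 control cells and 160 UMIs in 99 SM22-SmoM2 cells, that is 2.93 and 12.8 CPM (2.13 [1.62 to 2.67]). Its levels by fibroblast class are given below. Adamts20 had 6 UMIs in 6 control cells and 71 UMIs in 46 SM22-SmoM2 cells, or 0.439 and 5.69 CPM (3.70). Adamts19 was lower, with 8.93 and 1.60 CPM (−2.48 [−3.24 to −1.79]). Adamtsl4, a microfibril-binding protein, was at 14.2 and 6.26 CPM (−1.18), and Adamtsl1 at 34.7 and 57.5 CPM (0.73).

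The inhibitors differed in direction. Timp2, which also takes part in Mmp2 activation by Mmp14, was at 1144 and 590 CPM (−0.96), and Timp1 was at 581 and 393 CPM (−0.56). Timp3, which binds to the matrix and also blocks Adamts and Adam proteinases, was at 109 [104 to 115] and 210 [202 to 218] CPM (0.94). It made up 5.95% of the fibroblast Timp UMIs in the control and 17.6% in the SM22-SmoM2 library. At 2500 UMIs per cell, 19.9% of control and 28.2% of SM22-SmoM2 fibroblasts held a Timp3 UMI (45.9% and 52.3% unthinned). Timp3 and Timp1 overlap Syn3 and Syn1 on the opposite strand, as Mmp11 and Mmp19 overlap Chchd10 and Tmem198b, and reads of such pairs could not be told apart if counting ignored strand.

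These differences were set against the make-up of the fibroblasts, which was not alike in the libraries. Sub-clusters in which at least 3 of the 5 Hh markers, Gli1 and Ptch1 among them, were raised are called Hh-active-like; they held 55 control and 722 SM22-SmoM2 cells. A further sub-cluster with more than 6 of 12 dermal papilla markers also raised, called Hh-active II-like, held 46 SM22-SmoM2 and 0 control cells. The remaining 984 control and 330 SM22-SmoM2 cells are called other fibroblasts. No member or Hh marker was used to form the clusters. Markers were scored on sums over both libraries, and Hh marker levels are not given for the 55 control cells alone. The name Hh-active-like therefore does not show that these control cells had raised Hh markers.

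Timp3 was higher in the Hh-active-like sub-clusters than in other fibroblasts of either library. It was at 269 CPM in the 55 Hh-active-like and 103 CPM in other cells of the control, and at 282 and 74.2 CPM in the same classes of the SM22-SmoM2 library. Within either class the libraries thus differed little or the other way, but the classes were unlike mixes of sub-clusters. Sub-cluster 6 had 40.1% of the SM22-SmoM2 fibroblast Timp3 UMIs. It held 35 of the 55 control and 165 of the 722 SM22-SmoM2 Hh-active-like cells. In sub-clusters 1 and 2, where both libraries had 50 or more cells, the Timp3 ratio was −0.46 [−0.70 to −0.22]. Mmp3 had the reverse pattern, at 264 CPM in other and 67.7 CPM in Hh-active-like cells of the control and at 291 and 27.4 CPM in the SM22-SmoM2 library. Between other fibroblasts the Mmp3 ratio was 0.14 [0.04 to 0.23]. Over 37 members compared between other fibroblasts, 2 were at least 2-fold higher in the SM22-SmoM2 library (Adamts6 and Adamts17) and 6 at least 2-fold lower (Adamts3, Adamts19, Adamtsl4, Mmp10, Mmp12 and Mmp16), against 4.05% and 5.92% of all genes, with a median of −0.36 against −0.07. Adamts6 had only 12 control and 9 SM22-SmoM2 UMIs in these cells.

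**Figure D4:**
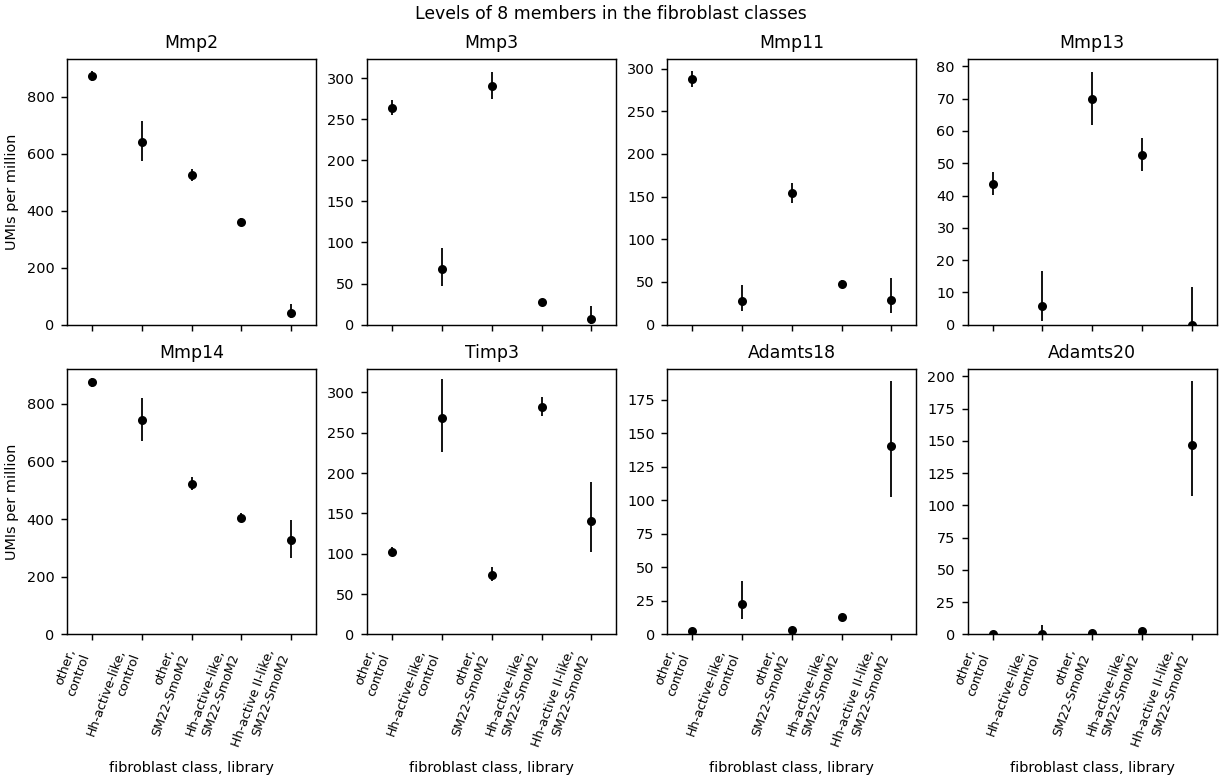
Levels of 8 members in 5 fibroblast classes, as CPM with exact 95% Poisson intervals for counting error. Each panel has its own axis from 0, and classes were named from marker sums over both libraries. Timp3 was at 269 and 282 in the Hh-active-like classes, Mmp3 at 264 and 291 in the classes of other fibroblasts, and Adamts18 and Adamts20 stood out in the 46 Hh-active II-like cells.

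Mmp2, Mmp14 and Timp2 were lower in the SM22-SmoM2 library within both classes. Mmp14 was at 874 and 523 CPM in other fibroblasts and at 743 and 406 CPM in Hh-active-like cells of the control and SM22-SmoM2 libraries. For Mmp2 the values were 872 and 525 CPM, and 641 and 361 CPM. Those of Timp2 were 1160 and 792 CPM, and 756 and 493 CPM. In sub-clusters 1 and 2 together, Mmp14 (−0.97) differed as much as in all fibroblasts, and Mmp2 (−0.38) and Timp2 (−0.38) differed less. Adamts18 was at 2.13 and 3.39 CPM in other fibroblasts of the control and SM22-SmoM2 libraries (28 and 14 UMIs). In Hh-active-like cells it was at 22.6 and 12.7 CPM (12 and 102 UMIs). Within neither class was it at least 2-fold higher in the SM22-SmoM2 library.

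Sub-cluster 1, whose leading genes were Crabp1, Igfbp2 and Prss35, held 68.0% of the Mmp11 UMIs of compared control fibroblasts. Of those of the SM22-SmoM2 library it held 37.1%. Over 28 members in sub-cluster 1, 1 was at least 2-fold higher in the SM22-SmoM2 library (Mmp9) and 6 lower (2.75% and 5.5% of all genes), and over 29 members in sub-cluster 2, 0 were higher and 5 lower, Mmp9 among them (2.29% and 3.93%). In sub-cluster 1 Mmp11 was at 789 CPM in 267 control cells and 288 CPM in 108 SM22-SmoM2 cells (−1.45 [−1.61 to −1.30]), and in sub-cluster 2 at 193 and 87.0 CPM (−1.15). Among the compared sub-clusters Mmp3 was highest in sub-cluster 2, with 799 and 756 CPM (−0.08 [−0.18 to 0.02]). It was lower in sub-cluster 1, with 166 and 32.6 CPM (−2.35). The set-aside sub-clusters, of 69 control and 3 SM22-SmoM2 cells, held most of the other Mmp3 UMIs and were not ranked. Over the 30 members with enough UMIs in sub-clusters 1 and 2 together, 0 were at least 2-fold higher and 3 (Mmp10, Mmp11 and Mmp16) were at least 2-fold lower, with 2.27% and 3.05% of 10873 genes past these limits, and the median was −0.07 against −0.09 over all genes. Of the 11 members at least 2-fold lower in all fibroblasts, 8 had at least 20 UMIs here and these 3 passed the limit; Adamts3, Adamts19 and Mmp12 had too few.

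**Figure D5:**
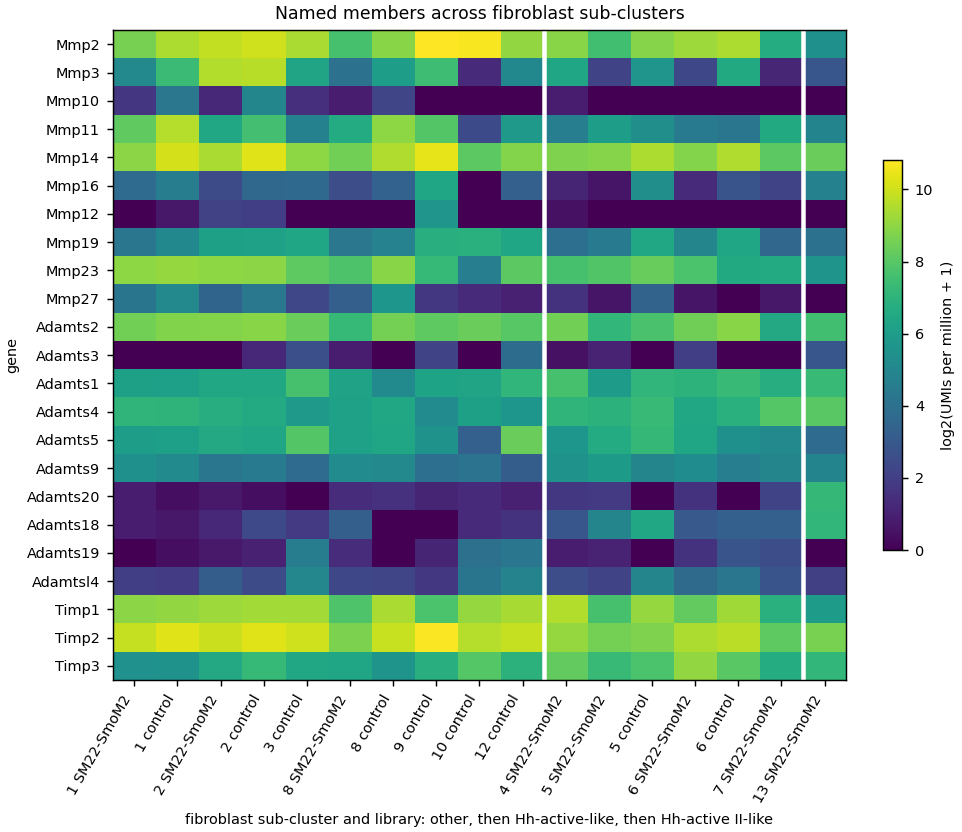
Levels of the 23 named members (rows) in compared fibroblast sub-clusters with at least 10 cells of a library (columns), as log2(CPM + 1). White lines part other, Hh-active-like and Hh-active II-like sub-clusters, and set-aside sub-clusters are not drawn. Mmp11 was brightest in sub-cluster 1 of the control, Mmp3 in sub-cluster 2 of both libraries, Mmp2 in the control sub-clusters 9 and 10, and Timp3 in sub-cluster 6 of the SM22-SmoM2 library.

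Some members marked sub-clusters found mainly in the control. Sub-cluster 9 (82 control and 0 SM22-SmoM2 cells, led by Eln, Fbln7 and Angptl1) and sub-cluster 10 (61 and 3 cells, led by Thbs4, Cst6 and Trf) had Mmp2 at 1796 and 1688 CPM, and sub-cluster 9 had Mmp16 at 81.4 CPM. Sub-cluster 3 had 253 and 4 cells and was led by Nov, Eln and Sfrp2. It held 71.3% of the Adamts19 UMIs, 61.3% of the Adamtsl4 UMIs and 50.2% of the Adamts5 UMIs of compared control fibroblasts. These 3 genes were among those lower in SM22-SmoM2 fibroblasts, and for Adamtsl4 the ratio in sub-clusters 1 and 2 was 0.64 [−0.38 to 1.62].

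Within the SM22-SmoM2 library, 5 of 32 members (15.6%) were at least 2-fold higher and 8 (25%) at least 2-fold lower in Hh-active-like than in other fibroblasts, where 7.63% of 11697 genes were higher and 6.91% lower. Higher were Timp3 (1.93 [1.75 to 2.10]), Adamts18 (1.90), Adamts20 (1.43, interval −0.14 to 3.43), Adamtsl5 (1.05) and Adamts19 (1.04, interval −0.59 to 3.08). Lower were Mmp27 (−3.63), Mmp3 (−3.41 [−3.62 to −3.20]), Adamts16 (−2.99), Adamts17 (−2.26), Mmp16 (−2.21), Mmp11 (−1.70), Mmp23 (−1.13) and Mmp9 (−1.03). The immediate early and stress genes moved with this split. Their summed level (Fos, Fosb, Jun, Junb, Egr1, Atf3, Ier2, Dusp1, Hspa1a, Hspa1b and Hmox1) was 4456 to 9256 CPM in the SM22-SmoM2 cells of the 4 Hh-active-like sub-clusters and 3218 to 3961 CPM in sub-clusters 1, 2 and 8. Over all compared fibroblasts it was 3893 CPM in the control and 6277 CPM in the SM22-SmoM2 library, and the members in low-stress cells are given in the closing section.

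In the 46 Hh-active II-like cells, which had a median of 4530.5 UMIs, Adamts20 and Adamts18 had large ratios to the Hh-active-like cells. Adamts20 was at 147 [108 to 196] CPM there and at 2.62 CPM in the Hh-active-like cells of the same library (log2 ratio 5.81 [5.04 to 6.63]), so that 64.8% of all SM22-SmoM2 fibroblast UMIs of the gene were in these cells. Adamts18 was at 141 and 12.7 CPM (3.47 [2.92 to 3.99]), and the next highest SM22-SmoM2 sub-cluster was sub-cluster 5 (led by Wif1, Penk and Tnmd) at 29.6 CPM. At 2500 UMIs per cell, 15 of 46 Hh-active II-like cells (32.6%, 19.5 to 48.0%) held an Adamts20 UMI, against 8 of 722 Hh-active-like cells (1.11%), and Adamts18 was found in 15 of 46 and 17 of 722 cells.

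Adamts15 (63.9 and 9.34 CPM), Mmp16 (25.6 and 1.62 CPM), Adamts14 (31.9 and 9.34 CPM) and Adamts7 (41.5 and 16.4 CPM) were also at least 2-fold higher there. Mmp2 (41.5 and 361 CPM), Timp1 (60.7 and 376 CPM), Adamts5, Mmp3, Mmp23, Timp3, Adamtsl5 and Adamtsl4 were at least 2-fold lower. Some of these values rest on few UMIs in the Hh-active II-like cells. There were 20 for Adamts15, 13 for Adamts7, 10 for Adamts14 and 8 for Mmp16. Of the lower members, Adamts5 had 4, Adamtsl5 had 3, Mmp3 had 2 and Adamtsl4 had 1. The interval of Adamtsl4 there (0.0809 to 17.8 CPM) held its Hh-active-like level of 6.60 CPM. That of Adamtsl5 (1.98 to 28.0 CPM) held its Hh-active-like level of 26.0 CPM. Mmp13 and Adamtsl1 had 0 UMIs in the Hh-active II-like cells, so that they were at least 2-fold lower even at 3 UMIs. Of the 421 Mmp13 UMIs of SM22-SmoM2 Hh-active-like cells, 407 were in sub-cluster 4, and few were in the other Hh-active-like sub-clusters. A near absence of Mmp13 is thus not particular to the Hh-active II-like cells. In all, 6 of 28 members (21.4%) were higher and 10 (35.7%) lower, with 23.4% and 7.67% of 10988 genes past the same limits and a median of 0.37 over all genes, so the count of higher members was near the background. The stress gene sum was 13667 CPM in these cells.

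In endothelial, Schwann and muscle cells few members differed by 2-fold. In endothelial cells 0 of 22 members were higher and 2 lower (Mmp3 and Adamts5, 1.72% and 3.13% of all genes), in Schwann cells 0 of 25 higher and 2 lower (Adamts17 and Mmp19, 1.92% and 3.54%) and in muscle cells 0 of 22 higher and 1 lower (Mmp11, 2.02% and 6.82%). Mmp11 in muscle cells was at 99.2 CPM in the control and 39.3 CPM in the SM22-SmoM2 library (−1.34 [−2.06 to −0.68]), and the endothelial Adamts5 value (12.2 and 4.63 CPM) rested on 100 and 11 UMIs. The Schwann level of Mmp19 was 9.96% and 11.9% of that in fibroblasts. The collagen and proteoglycan genes had medians of 6.77% (1.14% to 17.7%) and 10.8% (1.46% to 22.6%) there. Whether the Schwann Mmp19 level is background was not tested.

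In immune cells, of which there were 82 and 33, 11 members had enough UMIs. Of these, 2 were at least 2-fold higher and 1 lower in the SM22-SmoM2 library, against 4.33% and 10.4% of 5172 genes. The immune cluster led by Lyz2, C1qb and C1qa had 43 control and 29 SM22-SmoM2 cells. That led by Cd74, H2-Aa and H2-Ab1 had 39 and 4. Levels were not taken per cluster, so the differences below cannot be told apart from this mix. Mmp19 had 40 and 56 UMIs (57.1 and 153 CPM, log2 ratio 1.42 [0.81 to 2.05]) and Mmp12 had 101 and 11 UMIs (−2.26 [−3.31 to −1.36]). Adamts2 had 19 and 23 UMIs (1.21), at 7.12% and 22.8% of its fibroblast level, close to the 6.64% and 20.7% of the collagen and proteoglycan genes. Timp2 was at 376 and 618 CPM (0.72 [0.46 to 0.98]), and the Timp sum differed by 0.68 [0.44 to 0.92].

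Genes that activate or restrain these proteinases were described from a list of 24. Of the 22 with enough UMIs in fibroblasts, 0 were at least 2-fold higher and 6 at least 2-fold lower in the SM22-SmoM2 library, where 6.55% and 6.03% of all genes passed these limits, and the median was −0.62 against −0.06 over all genes. The proprotein convertase Pcsk6 had 184 and 25 UMIs (−2.75), the plasminogen activator Plau at 5.93 and 1.92 CPM (−1.62), the lysosomal protease Ctsb at 1534 and 624 CPM (−1.30) and the hyaluronan receptor Cd44, which docks surface Mmp proteins, at 374 and 174 CPM (−1.11). The other 2 were Thsd4 and Pcolce2. The convertase Furin, which cuts the Mmp14 zymogen, was at 56.7 and 52.7 CPM and the membrane inhibitor Reck at 12.6 and 11.1 CPM. Of 16 related metalloproteinases, 12 had enough UMIs, with 2 higher (Tll1, 2.57, and Adam8, 1.08), 0 lower and a median of −0.35, beside the same shares and median over all genes.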

How the data were processed

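Dermal cells sorted for Tomato had been put through the 10x Genomics Chromium Single Cell 3′ v2 kit. The deposited matrices hold UMI counts per gene and cell barcode, made by the authors with bcl2fastq and Cell Ranger on mm10 per the labels, from confidently mapped, de-duplicated reads whose barcode and UMI were valid; versions, the cell filter and strand are not given in the sources used here. The barcode table lists all 737280 kit barcodes and names no cell, so barcodes shared by the libraries could not be counted; 0 count profiles were identical in both.

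The members, gene lists and classes were chosen with earlier results of these data known. Cells with at least 200 genes and at most 10% mitochondrial UMIs were kept (22 control and 10 SM22-SmoM2 cells removed). Log values of 2000 variable genes (scanpy 1.11.5), without 74 genes including all members, gave 20 principal components, and k-means (scikit-learn 1.9.0, 50 starts) gave 20 clusters and 15 fibroblast sub-clusters. A name needed at least 3 markers at 10 CPM and 1.5 times the median cluster. Clusters with more than 6 of the 12 dermal papilla markers raised were named fibroblast if no lineage passed or another passed with only 3. No doublets were removed in the main analysis. Counts were summed per class and library. Members were named where they passed 2-fold with at least 20 UMIs in fibroblasts or reached 100 CPM in a lineage with at least 50 cells; a few others are named by role after their values were seen. A count of 0 was set to 3 UMIs for a bound. CPM have exact Poisson, ratios exact conditional and shares exact Clopper-Pearson 95% intervals (scipy 1.17.1), for counting error only. The call rule was tested on simulated data.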

Additional observations from a re-analysis of the deposited data

Results flagged for a closer look

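8 members had counting intervals on opposite sides of 0 in different lineages when the SM22-SmoM2 library was set against the control. This count was not taken over all genes, so it is not shown to be particular to the members. The differences between lineages were not tested, since there was 1 library per condition. Timp3 was higher in fibroblasts (log2 ratio 0.94) and lower in endothelial (−0.39) and Schwann cells (−0.56). Adamts9 was higher in fibroblasts (0.89) and lower in endothelial cells (−0.51), and Adamts4 was likewise higher in fibroblasts (0.64) and lower in endothelial cells (−0.21).

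The other 5 involve immune cells (82 control and 33 SM22-SmoM2 cells). The 2 immune clusters had unlike shares of these cells in the libraries, and levels per cluster were not taken. Mmp19 was higher in immune cells (1.42) and lower in fibroblasts (−1.45). Timp2 was higher in immune cells (0.72) and lower in fibroblasts (−0.96), endothelial (−0.31), Schwann (−0.28) and muscle cells (−0.52). Timp1 was higher in immune cells (0.94) and lower in fibroblasts (−0.56). Mmp2 was higher in immune cells (0.79) and lower in fibroblasts (−1.08), endothelial (−0.42) and Schwann cells (−0.32). Adamts2 was higher in immune (1.21) and endothelial cells (0.43) and lower in fibroblasts (−0.47) and Schwann cells (−0.47). The immune levels of Timp1 (6.88% and 19.5% of the fibroblast level), Mmp2 (5.13% and 18.8%) and Adamts2 (7.12% and 22.8%) moved with those of the collagen and proteoglycan genes of fibroblasts (6.64% and 20.7%).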

How the results depend on the processing

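No paired analysis was possible because each condition had 1 library, and for the same reason no replicate could be left out. Of the 13 members past 2-fold in fibroblasts, 12 kept their direction in every alternative that gave a value, and 6 stayed past 2-fold in all of them. Of these 6, Mmp10 alone had a value in all 15 alternatives. Adamts3, Adamts18, Adamts19, Adamts20 and Mmp12 had too few UMIs in some and a value in 11 to 14. Adamtsl4 reversed to 0.64 in sub-clusters 1 and 2, where both libraries had 50 or more cells. In those the counts past 2-fold were 0 higher and 3 lower; 4 were higher in male cells alone (Adamts9 and Mmp13 added), and 7 were lower in fibroblasts below the median share of stress genes, a setting chosen after seeing the data. The Mmp sum ratio was −1.07 with at most 5% mitochondrial UMIs and with cells thinned, −1.08 with no mitochondrial filter, with Leiden clustering and with the mean of per-cell CPM, −0.95 with K = 30, −0.93 when centred and in male cells, −1.25 in female cells (196 and 48), −0.55 in these sub-clusters and −0.83 in low-stress cells. The Adamts ratio was −0.14 at 5%, −0.15 with no filter, −0.14 centred, −0.36 in female cells and −0.032 in shared sub-clusters. The Adamtsl ratio was 0.034 thinned, 0.39 in female and 0.51 in low-stress cells. The Timp ratio was −0.66 with Leiden, −0.65 with K = 30, −0.71 thinned, −0.68 per cell, −0.56 centred, −1.01 in female cells, −0.28 in shared sub-clusters and −0.55 in low-stress cells. Between Hh-active-like and other cells, 3 members were higher with K = 20 sub-clusters and with thinned cells. The cause of these shifts was not tested. Scrublet marked 5 control and 11 SM22-SmoM2 barcodes, so few that doublets were in effect not assessed. The fibroblast libraries differed in sex, stress genes and sub-cluster make-up, which cannot be told apart from genotype with 1 library each.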
